A study of Musa balbisiana with 10 samples.

Results

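The ethylene effect on day 7 was set against the ethylene effect on day 1 in the fruit pulp of Klutuk Wulung banana, a wild-type seeded banana of the B genome (Musa balbisiana, BB Group). All 10 of the 10 libraries of the series entered this comparison, chosen by the treatment and day in their titles. Day 1 has 2 libraries of control fruit, which got no ethylene (A, B), and 2 of fruit that had been held in a glass container with the gas at 100 µl/L (A, C). Day 7 has 3 libraries of each kind (A, B, C). The gas was removed after the exposure and the fruit was kept at room temperature, so day 7 was measured in fruit that was no longer in the container. All groups share the cultivar and the tissue. The paper calls the replicates biological, but whether a library held 1 fruit or several is not stated there or in the labels. The A libraries of both control groups and of ethylene-treated fruit on day 7 were single-end, and the other 7 were paired-end. Ethylene-treated fruit on day 1 was thus the only group without a single-end library, so layout was not balanced between the arms of day 1. Each library is bulk pulp, in which fewer cells of a type and less RNA per cell cannot be told apart.

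Banana is a climacteric fruit. In such fruit ethylene is perceived by receptors in the membrane of the endoplasmic reticulum, and the signal reaches transcription factors that switch other genes on or off. Ethylene also promotes its own synthesis during ripening, starch is turned into sugar, and enzymes that act on pectin and hemicellulose soften the cell wall. A gene that answers to the gas alone and a gene that follows the later course of ripening may therefore have different ethylene effects early and late. No source used here pairs the identifiers of the tables with gene names, so the genes are given by identifier and place, and the pulp label could not be checked with marker genes.

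The measure was FPKM, fragments per kilobase of transcript scaled to the mapped fragments of the library, as Cufflinks gave it in each library separately. Loci were matched between libraries by their coordinates on DH PKW v1.1. Loci of at least 300 bp that overlapped were merged into regions with their FPKM summed, and 16811 regions were tested, those found in every library with a mean FPKM of 1 or more. The paper gives the reads and the mapped share of each library. The tables hold no number of fragments, so the count behind a single value is unknown. Upper bounds of Cufflinks are given for some of the low values. Replicates correlated across regions on the log2(FPKM + 1) scale with r from 0.922 to 0.972, and libraries of different treatment had at most 0.869. The interaction is the ethylene-minus-control difference of day 7 minus that of day 1, on the log2(FPKM + 1) scale, a scale that understates the change of low values. It was tested with limma, two-sided, at a Benjamini-Hochberg adjusted p threshold of 0.05.

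The ethylene effect differed between the days for 2390 regions (14.2% of the regions tested). The interaction was above 0 for 1397 of them (8.31%) and below 0 for 993 (5.91%). On day 1, 7044 regions (41.9%) differed between ethylene-treated and control fruit, and 2263 (13.5%) did on day 7, or 1343 with either ethylene day 7 B or ethylene day 7 C left out. An interaction of at least 1 on the log2 scale in either direction was seen in 2169 of the 2390 regions, of at least 2 in 546 and of at least 4 in 36. Over all 16811 regions these counts were 3688, 598 and 41. The smallest called interaction was 0.68. With groups of 2 and 3 libraries the threshold favours large differences, so the test in part sets these sizes. With ethylene day 1 A left out 1118 regions were called, and with ethylene day 1 C left out 1112, in fits where that group has a single library that is assumed to vary like the others. Of the 2390 regions, 886 (37.1%) were called in each of the 10 fits that leave out 1 library. Over all regions the median interaction was 0.13, and median-of-ratios scaling moved it to -0.01. The called regions then numbered 1245 above and 1389 below 0, and with quantile normalization 1024 and 1017. On the log2(FPKM + 5) scale they numbered 1109 and 1115. The excess of regions above 0 thus depended on the scaling and on the number added before the log.

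For most regions the effects of the days were alike in direction and differed in size. The ethylene effect had the same sign on both days for 12428 of 16811 regions (73.9%), with an r of 0.658 across regions, a description of points that share libraries within each day. Its size was smaller on day 7 than on day 1 for 74.3% of all regions, with a median size of 0.68 on day 1 and 0.34 on day 7. Day 1 rests on 2 libraries in each arm and day 7 on 3, and the part of this in the sizes was not tested. Among the 7044 regions called on day 1, 342 called higher on both days and 198 called lower on both days were also called by the interaction.

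**Figure D1:**
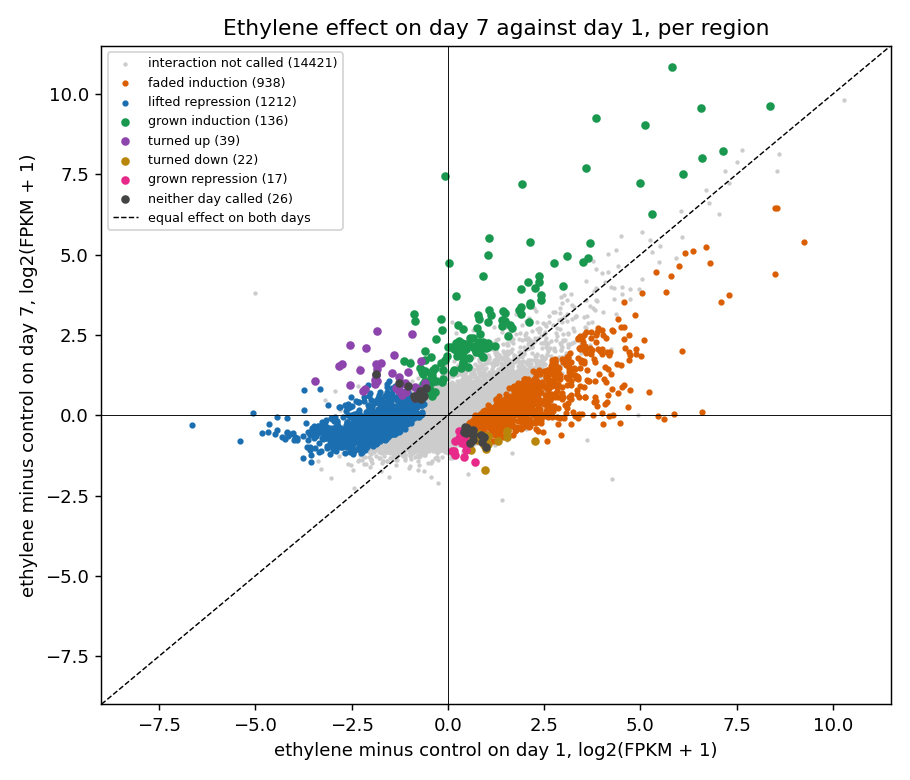
Each point is 1 of 16811 regions, with the ethylene-minus-control difference of log2(FPKM + 1) on day 1 along the horizontal axis and on day 7 along the vertical axis. Coloured points are the 2390 regions past the interaction threshold, by class, and points on the dashed line would have the same effect on both days. The 938 faded inductions lie below that line on the right and the 1212 lifted repressions above it on the left.

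The called regions were sorted by what ethylene did on each day. A faded induction was called higher on day 1, with a lower effect on day 7 that was not called lower. A lifted repression was called lower on day 1, with an effect on day 7 that was higher and not called higher. A turned region was called in opposite directions on the days. A grown induction or grown repression was called on day 7 with an effect further from 0 in that direction than on day 1, and was not called the opposite way on day 1. These calls come from the same fit as the interaction, so the class counts are a description. There were 938 faded inductions, 1212 lifted repressions, 39 regions that turned up, 22 that turned down, 136 grown inductions, 17 grown repressions and 26 regions called on neither day alone. Which of the 2 large classes was larger depended on the scaling and on the number added before the log. There were 1324 faded inductions and 1061 lifted repressions under median-of-ratios scaling, and 931 and 867 with quantile normalization. On the log2(FPKM + 5) scale these were 1065 and 925, and on the log2(FPKM + 0.1) scale 837 and 1422.

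The group mean of faded inductions was highest in ethylene-treated fruit on day 1 for 930 of the 938 (4779 of all 16811 regions). The class rule favours this order. Their median ethylene effect was 1.89 on day 1 and 0.27 on day 7. On day 7, 279 of them were still called higher (8.75% of all regions were) and 659 were not called. A median of 15.3% of the day 1 effect, on the log2 scale, was left on day 7, with quartiles of -5.19% and 33.9%. Over all 2876 regions called higher on day 1 the median was 38.8%, and the class was chosen for a smaller effect on day 7. Of the 938, 875 also changed in ethylene-treated fruit between the days (25.3% of all regions did), 874 of them to lower values (11% of all regions fell). In control fruit 19 of the 938 changed (2.03%, with 1.31% of all regions). These parts share libraries with the interaction. Without ethylene day 1 A there were 452 faded inductions and without ethylene day 1 C 446.

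The faded inductions with the largest interaction were pulses. Mba11_g01060.v1.1 spans 1042970 to 1044767 of chromosome 11, and its FPKM was 116 in ethylene day 1 A and 113 in ethylene day 1 C. It was 0.124 and 0.242 in control day 1 A and B, 0.0278, 0.449 and 0.0767 in control day 7 A, B and C, and 0.264, 0.312 and 0.220 in ethylene day 7 A, B and C. The gene was thus near 0 in 8 libraries and above 100 in the remaining pair. The interaction was -6.50 (standard error 0.287, limma adjusted p = 5.98e-06), with an ethylene effect of 6.62 on day 1 and 0.11 on day 7.

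Mba09_g07750.v1.1, on chromosome 9 from 5667034 to 5670340, had an FPKM of 255 and 247 in ethylene-treated fruit on day 1 and of 2.67 and 4.09 in control fruit. On day 7 it had 2.63, 3.67 and 3.26 in control fruit and 3.40, 3.24 and 3.21 in ethylene-treated fruit, where the groups overlap. The interaction was -5.82 (standard error 0.288, limma adjusted p = 9e-06). Mba05_g08270.v1.1, on chromosome 5 from 6359960 to 6361734, had 52.9 and 50.8 in ethylene-treated fruit on day 1 and at most 0.303 in the other 8 libraries, with an upper bound of Cufflinks of at most 0.455 there, and an interaction of -5.48 (standard error 0.255, limma adjusted p = 6.75e-06).

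Mba11_g18710.v1.1 spans 25364778 to 25365815 of chromosome 11, and its FPKM was 165 and 152 in ethylene-treated fruit on day 1 and 7.25 and 5.20 in control fruit. On day 7 ethylene-treated fruit had 3.47, 2.32 and 3.95 and control fruit 1.77, 5.10 and 6.20. The groups were far apart on day 1 and overlapped on day 7, with an interaction of -4.72 (standard error 0.528, limma adjusted p = 0.000653). All 4 of these genes lost the ethylene difference on day 7 in the sense that the test did not call it, with limma adjusted p of 0.723, 0.91, 0.924 and 0.674 in the order named.

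Lifted repressions were lowest in ethylene-treated fruit on day 1 in 1184 of 1212 regions (7901 of all 16811 regions were), an order that the class rule favours. Their median ethylene effect was -1.80 on day 1 and -0.36 on day 7, and 18.1% of the day 1 effect was left as a median, with quartiles of 4.88% and 27.1%, and 29.9% over all 4168 regions called lower on day 1. On day 7, 198 were still called lower (4.71% of all regions were) and 1014 were not called. Between the days 1039 of them changed in ethylene-treated fruit, 1038 to higher values (14.3% of all regions rose), and 77 changed in control fruit (1.31% of all regions did). Without ethylene day 1 A there were 537 of them and without ethylene day 1 C 544.

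Mba01_g27630.v1.1, on chromosome 1 from 21699381 to 21701109, was nearly silent in ethylene-treated fruit on day 1, with an FPKM of 0.869 and 1.02 and upper bounds of 1.19 and 1.33. Control fruit had 125 and 296 on day 1 and 198, 139 and 283 on day 7, and ethylene-treated fruit 117, 202 and 170 on day 7. On day 1 the groups were apart, and on day 7 they overlapped. The ethylene effect was -6.64 on day 1 (limma adjusted p = 2.9e-06) and -0.32 on day 7 (limma adjusted p = 0.586), and the interaction was 6.32 (standard error 0.55, limma adjusted p = 0.000161).

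Mba09_g11240.v1.1, on chromosome 9 from 8146190 to 8152938, had 8.79 and 10.6 FPKM in ethylene-treated fruit on day 1 and 232 and 308 in control fruit. On day 7 it had 224, 257 and 261 in ethylene-treated fruit, with 227, 287 and 395 in control fruit. Its interaction was 4.40 (standard error 0.332, limma adjusted p = 8.03e-05). The day 7 values of both groups overlapped, as for Mba01_g27630.v1.1.

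Mba10_g13870.v1.1, on chromosome 10 from 31602401 to 31604720, came back in part. Its FPKM was 4.15 and 2.56 in ethylene-treated fruit on day 1 and 151 and 214 in control fruit. On day 7 ethylene-treated fruit had 59.5, 72.2 and 69.1, all below the 132, 102 and 117 of control fruit, and the ethylene effect was still called, at -0.79 (limma adjusted p = 0.0256). The interaction was 4.61 (standard error 0.311, limma adjusted p = 4.18e-05).

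For Mba05_g06740.v1.1, on chromosome 5 from 5273634 to 5276534, both kinds of fruit moved. Control fruit fell from 101 and 70.9 FPKM on day 1 to 25.4, 8.16 and 17.7 on day 7 (log2 change -2.37, limma adjusted p = 0.0318). Ethylene-treated fruit rose from 4.24 and 6.78 to 38.4, 28.0 and 19.2 (log2 change 2.16, limma adjusted p = 0.00519). The interaction was 4.53 (standard error 0.609, limma adjusted p = 0.00157). On day 7 the groups overlapped.

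**Figure D2:**
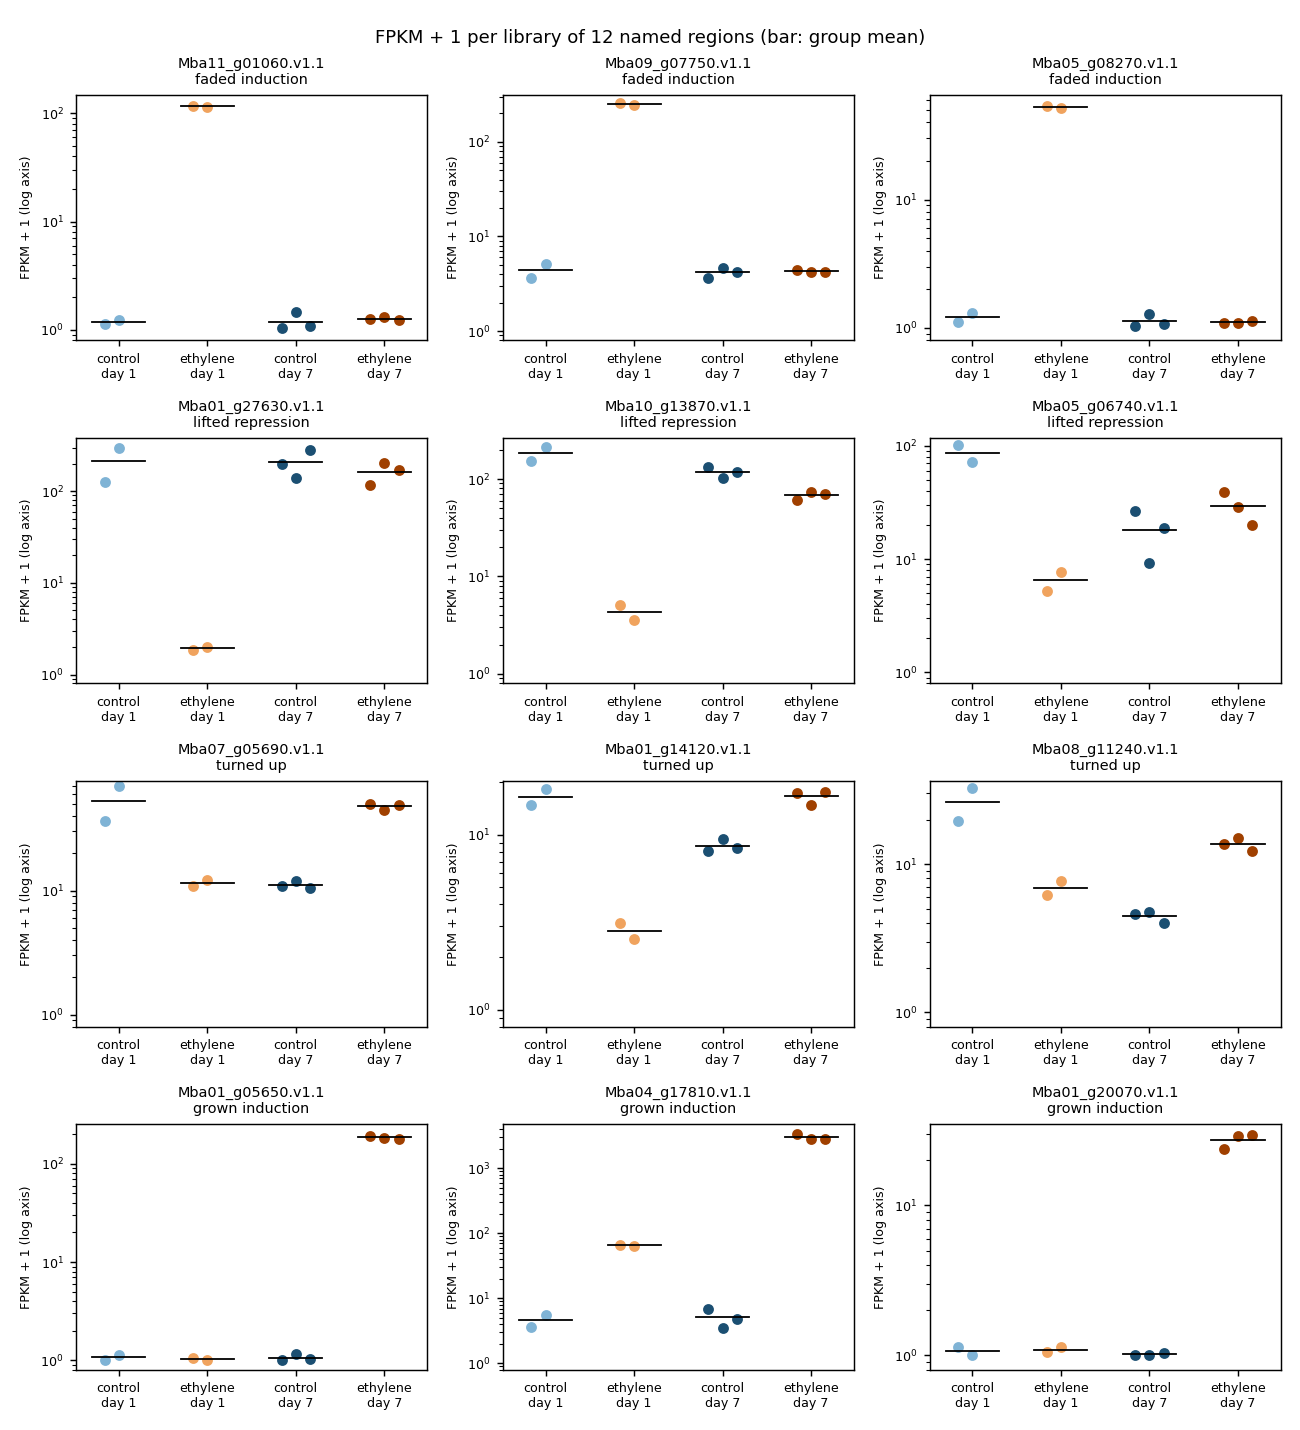
Each panel gives FPKM + 1 on a log axis for 1 region in the 10 libraries, with a point for each library and a bar for the mean of the group. The upper row shows genes that are high only in ethylene day 1 among these groups, such as Mba11_g01060.v1.1 at 116 and 113. The next rows show genes that are low in ethylene day 1 and recover, genes whose order turns between the days, and genes that are high in ethylene day 7, such as Mba01_g05650.v1.1.

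The 39 regions that turned up were lower with ethylene on day 1 and higher with ethylene on day 7. Their median effect went from -1.34 to 1.02. Of the 39, 26 were also called between the days in control fruit (66.7%, with 1.31% of all regions called), with a median change of -1.55. The same values define the class, and the control calls over all regions, 220, fell to 111 to 144 when certain single libraries were left out. In ethylene-treated fruit 29 of 39 were called, all to higher values (14.3% of all regions rose). Leaving out ethylene day 1 A left 24 such regions, ethylene day 1 C or ethylene day 7 B 25 each, and ethylene day 7 A or C 26 each, and 32 of the 39 (82.1%) kept their interaction call in each fit that left out 1 library. That share was 40.4% for faded inductions, 33.7% for lifted repressions, 54.5% for regions that turned down, 38.2% for grown inductions and 11.8% for grown repressions.

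Mba07_g05690.v1.1, on chromosome 7 from 4784431 to 4804210, had the largest interaction of the 7 turned-up regions that met the rule for naming. Control fruit had an FPKM of 35.7 and 68.4 on day 1 and of 9.94, 10.99 and 9.55 on day 7. Ethylene-treated fruit had 9.95 and 11.2 on day 1 and 48.7, 43.4 and 48.2 on day 7. Control fruit on day 7 was thus at the level of ethylene-treated fruit on day 1, and the groups were apart on both days. The ethylene effect was -2.13 on day 1 (limma adjusted p = 0.000174) and 2.098 on day 7 (limma adjusted p = 0.000123), an interaction of 4.23 (standard error 0.343, limma adjusted p = 9.75e-05).

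Mba08_g11240.v1.1, on chromosome 8 from 9266436 to 9273385, had 18.5 and 31.7 FPKM in control fruit on day 1 and 5.17 and 6.72 in ethylene-treated fruit. On day 7 control fruit had 3.63, 3.76 and 3.00 and ethylene-treated fruit 12.6, 13.9 and 11.2. Its interaction was 3.48 (standard error 0.348, limma adjusted p = 0.000356). Control fruit fell by 2.51 on the log2 scale between the days (limma adjusted p = 0.00185).

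Mba01_g14120.v1.1, on chromosome 1 from 10476223 to 10481727, had 13.7 and 17.3 FPKM in control fruit on day 1 against 2.13 and 1.52 in ethylene-treated fruit, and on day 7 7.11, 8.44 and 7.38 against 16.2, 13.8 and 16.6, an interaction of 3.48 (standard error 0.282, limma adjusted p = 9.75e-05). Mba07_g17940.v1.1, on chromosome 7 from 28894387 to 28898565, was low on day 1 in both groups, with 1.68 and 2.43 in control fruit and 0.384 and 0.833 in ethylene-treated fruit. On day 7 it had 0.885, 0.785 and 1.18 in control fruit and 10.1, 8.50 and 12.03 in ethylene-treated fruit, an interaction of 3.45 (standard error 0.326, limma adjusted p = 0.000251). The groups of both genes were apart on both days.

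The 22 regions that turned down moved less, with a median effect of 0.87 on day 1 and -0.69 on day 7. Of their number, 7 carried a single identifier and 3 of these met the rule for naming. Mba07_g00740.v1.1, on chromosome 7 from 716533 to 734161, had 57.1 and 43.2 FPKM in ethylene-treated fruit on day 1 with 30.7 and 33.4 in control fruit. On day 7 it had 21.9, 17.3 and 16.3 with 31.3, 32.1 and 29.8 in control fruit. Its values in control fruit stayed within 29.8 to 33.4, and its interaction was -1.34 (standard error 0.259, limma adjusted p = 0.00825).

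Mba08_g33300.v1.1, on chromosome 8 from 44511544 to 44522488, had an interaction of -1.33 (limma adjusted p = 0.0116). Its FPKM in ethylene-treated fruit was 13.98 and 11.9 on day 1 and 5.08, 4.27 and 5.80 on day 7, with 7.00 to 8.94 in the 5 control libraries. Mba01_g05530.v1.1, on chromosome 1 from 4084615 to 4093352, had -0.99 (limma adjusted p = 0.0121), with 46.3 and 44.9 on day 1 and 25.4, 27.4 and 29.6 on day 7 in ethylene-treated fruit and 29.0 to 38.6 in control fruit. Each of the 3 genes lost its call without ethylene day 1 A (limma adjusted p = 0.0518, 0.0665 and 0.0626 in the order named), Mba08_g33300.v1.1 also in paired-end libraries alone (0.0619) and Mba01_g05530.v1.1 also without ethylene day 1 C (0.0541). The class counted 14 without control day 1 A, 9 without control day 7 A, 8 without control day 7 B, 3 without ethylene day 1 A, 5 without ethylene day 1 C, and with 1 library of ethylene day 7 left out, 14 (A), 1 (B) and 3 (C).

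Grown inductions were few and contained the highest interaction. The 136 regions had a median effect of 0.51 on day 1 and 2.24 on day 7. The group mean was highest in ethylene-treated fruit on day 7 for 120 of them (2171 of all 16811 regions), an order that the class rule favours. On day 1, 63 of the 136 were already called higher (17.1% of all regions were). Between the days 105 rose in ethylene-treated fruit (14.3% of all regions did). The calls come from the fit that chose the class. Without ethylene day 1 A there were 86 and without ethylene day 1 C 81.

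Mba01_g05650.v1.1, on chromosome 1 from 4160265 to 4161632, had the largest interaction of all called regions, 7.52 (standard error 0.259, limma adjusted p = 1.08e-06). Its FPKM was 193, 183 and 178 in ethylene-treated fruit on day 7. In ethylene-treated fruit on day 1 it was 0.0426 in A and listed at 0 in C. In control fruit it was listed at 0 in day 1 A and day 7 A, and it was 0.136 in day 1 B, 0.149 in day 7 B and 0.0322 in day 7 C. The upper bounds of Cufflinks were at most 0.299 in these 7 libraries.

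Mba01_g20070.v1.1, on chromosome 1 from 15435448 to 15436421, had the same shape, with 22.8, 28.1 and 28.4 FPKM in ethylene-treated fruit on day 7 and at most 0.128 elsewhere (upper bounds of at most 0.309), and an interaction of 4.71 (standard error 0.26, limma adjusted p = 2.15e-05). For Mba01_g05650.v1.1 and Mba01_g20070.v1.1 the ethylene effect on day 1 was -0.06 and 0.04 (limma adjusted p = 0.827 and 0.897). Both were listed at or near 0 on day 1 in each group.

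The other named genes of this class began on day 1. Mba04_g17810.v1.1, on chromosome 4 from 21614554 to 21624411, went from 65.2 and 63.5 FPKM in ethylene-treated fruit on day 1 to 3370, 2859 and 2872 on day 7, with 2.51 to 5.99 in the 5 control libraries. Its ethylene effect was 3.86 on day 1 and 9.26 on day 7, an interaction of 5.40 (standard error 0.391, limma adjusted p = 6.12e-05). Mba03_g03340.v1.1, on chromosome 3 from 2460312 to 2463192, went from 2.13 and 1.63 to 51.2, 58.05 and 63.0, with 0.179 to 0.587 in control fruit, and an interaction of 4.45 (standard error 0.301, limma adjusted p = 4.18e-05). All of the 4 named grown inductions passed the threshold under each alternative in which they were tested.

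Grown repressions were the smallest class, with 17 regions and a median effect of 0.40 on day 1 and -0.90 on day 7. Between the days 10 of the 17 fell in ethylene-treated fruit (11% of all regions did) and 2 changed in control fruit (1.31% of all regions did). The fit behind these calls also chose the class. Mba11_g06220.v1.1, on chromosome 11 from 5767089 to 5783139, had 46.4 and 46.4 FPKM in control fruit on day 1 and 94.0, 87.4 and 83.5 on day 7, a change of 0.91 on the log2 scale (limma adjusted p = 0.0391). Ethylene-treated fruit had 54.3 and 72.7 on day 1 and 59.8, 49.1 and 47.4 on day 7, which was not called (limma adjusted p = 0.287). The interaction was -1.19 (standard error 0.247, limma adjusted p = 0.0118), and it was lost without ethylene day 1 C (limma adjusted p = 0.0671).

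Mba06_g34990.v1.1, on chromosome 6 from 39347144 to 39358293, and Mba05_g26810.v1.1, on chromosome 5 from 39078109 to 39098183, had interactions of -1.22 and -1.01 (limma adjusted p = 0.0352 and 0.0315). On day 1 the first had 6.47 and 7.63 FPKM in ethylene-treated fruit and 5.73 and 4.83 in control fruit. On day 7 it had 4.95, 6.99 and 4.89 and 13.9, 9.58 and 9.78. The second had 21.1 and 19.4 and 17.2 and 14.8 on day 1, and 15.1, 10.9 and 11.8 and 18.9, 20.4 and 22.6 on day 7. Between the days the first was called in neither ethylene-treated nor control fruit (limma adjusted p = 0.399 and 0.105). The second fell in ethylene-treated fruit by 0.66 on the log2 scale (limma adjusted p = 0.0276) and was not called in control fruit (0.483). The first passed the threshold under 16 of 27 alternatives and the second under 17 of 26, with limma adjusted p of up to 0.451 and 0.280. The first was lost without control day 1 A or B, control day 7 A, ethylene day 1 A or C, or ethylene day 7 A or C (0.0538 to 0.135). The second was lost without control day 1 B, control day 7 B or C, ethylene day 1 A or C, or ethylene day 7 B or C (0.0532 to 0.124). The class counted 26 without control day 7 C, 6 without ethylene day 1 A or C, and 10 or 7 when B or C of ethylene day 7 was left out.

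Of the 2390 called regions, 1285 carried no identifier in any table, and the 4 of these with the largest interactions under the same conditions were named by position. A region on chromosome 3 from 1649471 to 1650747 was a lifted repression, with 132 and 191 FPKM in control fruit and 3.85 and 3.77 in ethylene-treated fruit on day 1. On day 7 it had 43.7, 82.6 and 66.8 in control fruit and 68.3, 63.8 and 62.5 in ethylene-treated fruit. The interaction was 5.11 (standard error 0.361, limma adjusted p = 5.37e-05), and the groups overlapped on day 7 and were apart on day 1.

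Regions on chromosome 3 from 1480928 to 1484109 and on chromosome 7 from 9144089 to 9147317 turned up, with interactions of 4.74 and 4.51 (limma adjusted p = 9.28e-05 and 3.97e-05). The first had 18.6 and 30.6 FPKM in control fruit and 3.01 and 3.58 in ethylene-treated fruit on day 1, and 1.63, 2.70 and 1.95 against 13.3, 15.5 and 10.8 on day 7. The second had 59.05 and 79.0 against 5.61 and 5.07 on day 1, and 12.5, 17.7 and 11.7 against 28.3, 28.7 and 32.0 on day 7. In both, control fruit fell between the days (1.05% of all regions did) and ethylene-treated fruit rose.

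A region on chromosome 6 from 6924153 to 6932139 was a faded induction in which the replicates were far apart. It had 689 FPKM in ethylene day 1 A and 89.6 in ethylene day 1 C, 4.63 and 3.65 in control fruit on day 1, and 5.32 to 7.50 in the 6 libraries of day 7. Its interaction was -5.71 (standard error 0.888, limma adjusted p = 0.00309). It was called with either ethylene library of day 1 left out, and the size on day 1 is known only within this spread.

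The classes also differed in their share of the FPKM summed over regions. Loci shorter than 300 bp are not in that sum. Loci of at least 300 bp held an FPKM of 368939 of 440295 in control day 1 A. In control day 7 B they held only 357030 of 1.78e+07. The percentages are therefore shares of the regions and not of all transcripts. Faded inductions held 4.03% and 4.35% of the FPKM of all regions in control day 1 A and B, 21.8% and 21.7% in ethylene day 1 A and C, 5.24%, 5.37% and 5.51% in control day 7 A, B and C, and 10.02%, 10.9% and 10.7% in ethylene day 7 A, B and C. Lifted repressions held 14.4% and 14.3% in control fruit and 2.65% and 2.63% in ethylene-treated fruit on day 1. On day 7 they held 12.7%, 12.02% and 13.3% in control fruit and 7.86%, 7.55% and 7.80% in ethylene-treated fruit. The 136 grown inductions held 0.386% and 0.445% in control fruit and 1.64% and 1.55% in ethylene-treated fruit on day 1, and 0.194%, 0.209% and 0.219% and then 6.89%, 7.72% and 6.84% on day 7. The classes were chosen from these values, so the shares describe their weight and carry no test. FPKM is relative to the library, so a large gain in some regions lowers the share of the rest.

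**Figure D3:**
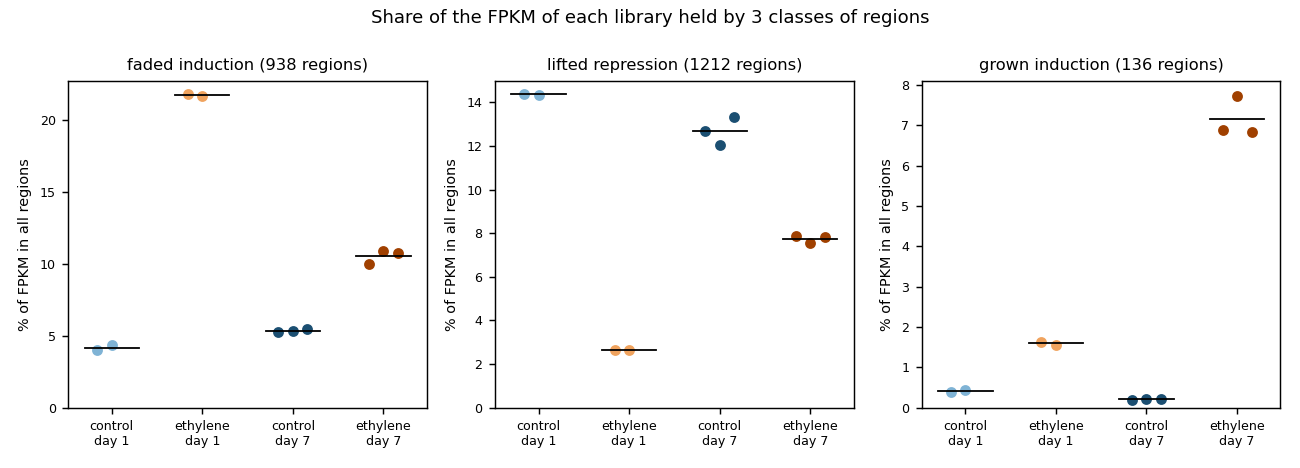
The vertical axis is the percent of the FPKM of all regions in a library that each class of regions held, with a point for each of the 10 libraries and a bar for the mean of the group. Faded inductions held 21.8% and 21.7% in ethylene-treated fruit on day 1 and 10.02% to 10.9% on day 7, and grown inductions reached 6.84% to 7.72% only in ethylene-treated fruit on day 7 among these groups.

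A few very abundant regions, chosen after their values were seen, carried much of these shares. In ethylene-treated fruit the 10 highest regions held 40.9% and 41.5% of the FPKM of the faded inductions on day 1, and 82.6% to 85.3% of that of the grown inductions on day 7. The faded induction with the highest mean over all 10 libraries was Mba09_g26900.v1.1, on chromosome 9 from 37384449 to 37385409. Its FPKM was 36.9 and 97.0 in control fruit and 22301 and 21817 in ethylene-treated fruit on day 1, and 169, 190 and 212 in control fruit and 13996, 18483 and 17466 in ethylene-treated fruit on day 7. It was 4.58% of the FPKM of all regions in ethylene day 1 A. Its ethylene effect went from 8.50 to 6.44 (interaction -2.06, standard error 0.481, limma adjusted p = 0.0194). It therefore stayed far above control fruit on day 7. Between the days it changed by 1.65 in control fruit (limma adjusted p = 0.052) and by -0.42 in ethylene-treated fruit (limma adjusted p = 0.415). Neither change was called, and the control part was the larger.

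Mba10_g13890.v1.1, on chromosome 10 from 31616193 to 31620276, lies close to the repressed Mba10_g13870.v1.1 and moved the other way. It had 222 and 287 FPKM in control fruit and 5800 and 7721 in ethylene-treated fruit on day 1, and 508, 593 and 618 against 934, 1213 and 850 on day 7. Its interaction was -3.93 (standard error 0.318, limma adjusted p = 9.75e-05), and it rose in control fruit between the days by 1.17 on the log2 scale (limma adjusted p = 0.0392). Among lifted repressions, Mba04_g39790.v1.1, on chromosome 4 from 42362410 to 42363176, had the highest mean over all 10 libraries, with 2960 and 4197 FPKM in control fruit and 141 and 134 in ethylene-treated fruit on day 1, and 2949, 2896 and 3832 against 2037, 2302 and 2432 on day 7. Its interaction was 4.16 (standard error 0.308, limma adjusted p = 7.04e-05).

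Among grown inductions the highest mean over all 10 libraries was that of Mba01_g18460.v1.1, on chromosome 1 from 14157157 to 14179783. It had 76.6 and 51.7 FPKM in control fruit and 2314 and 1805 in ethylene-treated fruit on day 1, and 37.4, 29.8 and 50.2 against 4374, 8561 and 5314 on day 7. Its interaction was 2.22 (standard error 0.451, limma adjusted p = 0.0105). A region on chromosome 1 from 20835203 to 20883459 joins 6 identifiers. It had 6615, 6786 and 5817 in ethylene day 7 A, B and C, above Mba01_g18460.v1.1 in A and C and below it in B. It had 457 and 460 in ethylene day 1 and 6.34 to 22.8 in control fruit (interaction 3.92, standard error 0.573, limma adjusted p = 0.00228). A region on chromosome 5 from 25927323 to 25967868 that joins 3 identifiers (Mba05_g17690.v1.1, Mba05_g17700.v1.1 and Mba05_g17710.v1.1) went from 565 and 560 in ethylene-treated fruit on day 1 to 5495, 6192 and 5824 on day 7, with 1.17 to 12.1 in control fruit. Its interaction was 5.04 (standard error 0.587, limma adjusted p = 0.00078), and which of its genes carried the signal cannot be told apart in the summed value.

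The called regions were also described by identifier, length and place, which the contrast did not use. A single Mba identifier was carried by 998 of 2390 (41.8%), and by 30.6% of all regions tested. Their median length was 5181 bp, with 6788 bp over all regions. Their mean FPKM, on which the filter and the contrast rest, had a median of 11.6, with 9.03 over all regions. On the 11 chromosomes 12.9% (chromosome 11) to 17.0% (chromosome 7) of the regions were called, and on unplaced scaffolds 16 of 602 (2.66%). Neighbouring regions were compared too: of the 1391 regions with an interaction above 0 that had a next region on the same chromosome, the next one was called in the same direction for 9.35%, with 8.36% of all next regions called that way. For interactions below 0 these shares were 8.36% and 5.96%.

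The interaction is also the change between the days in ethylene-treated fruit minus that in control fruit, so a called region has to differ in these changes and they are given as a description. Of the 2390, 2093 (87.6%) were called between the days in ethylene-treated fruit and 146 (6.11%) in control fruit, with 25.3% and 1.31% of all regions. Those calls over all regions depended on single libraries: 4258 in ethylene-treated fruit became 2098 or 2055 without ethylene day 1 A or C. The 220 in control fruit became 111 to 144 with any of control day 1 A, control day 7 A, control day 7 C, ethylene day 1 A, ethylene day 1 C, ethylene day 7 B or ethylene day 7 C left out. The median size of the change was 1.24 on the log2 scale in ethylene-treated fruit and 0.31 in control fruit, with 0.44 and 0.24 over all regions. On day 1 the libraries of ethylene-treated and control fruit did not overlap for 2362 of the 2390 (73.5% of all regions), and on day 7 for 1352 (34.7%). The day 1 arms have 2 libraries each, so libraries are apart there more often than on day 7 for any region.

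**Figure D4:**
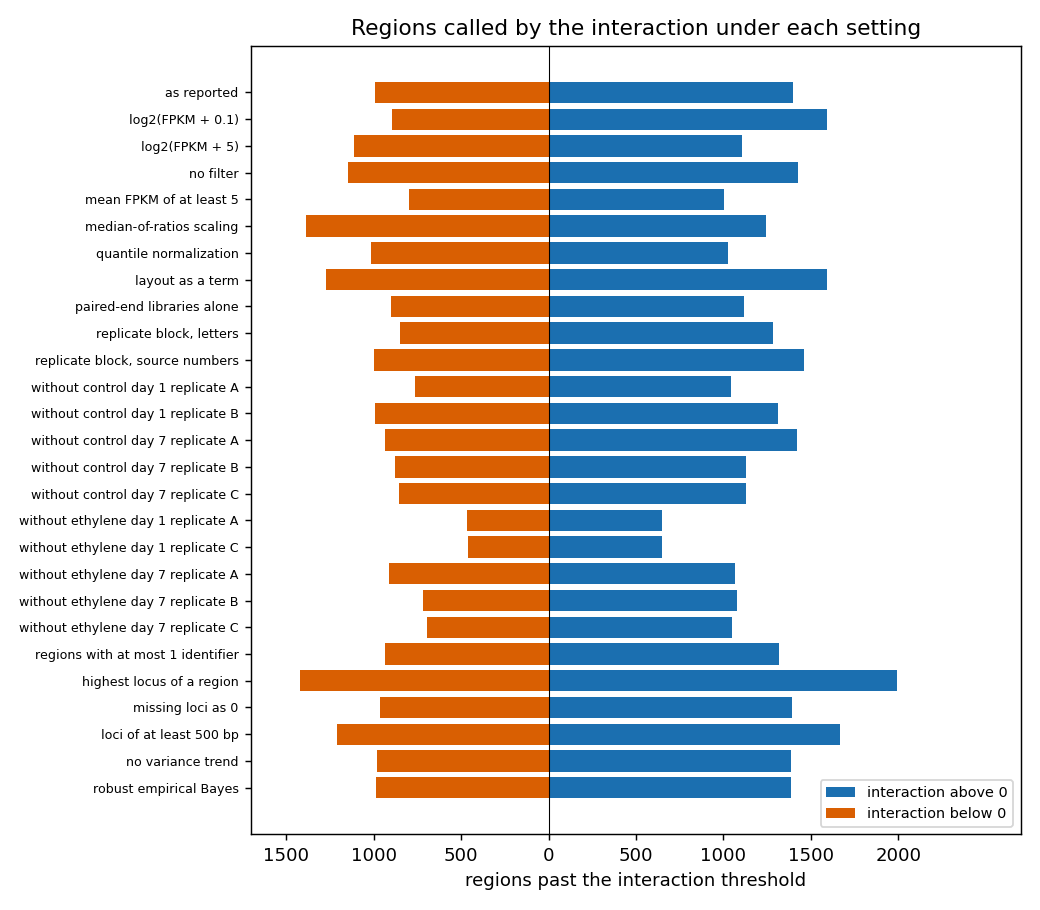
Bars give the number of regions past the interaction threshold under each setting, to the right for an interaction above 0 and to the left for an interaction below 0. The setting as reported has 1397 and 993, the fits without ethylene day 1 A or C have 652 and 466 or 651 and 461, and median-of-ratios scaling has 1245 and 1389. The fits on identical loci and on annotated identifiers, which test far fewer features, are left out.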

How the data were processed

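Per the paper and the labels, the authors checked reads with FastQC 0.11.8, trimmed them with Trimmomatic 0.38.0, mapped them with Tophat2 to DH PKW v1.1 and ran Cufflinks (version 2.2.2.1 in the labels). The deposited values are FPKM, 1 table per library, with bounds and a status for each locus. How strand and multi-mapped reads were handled is not given in the sources used here.

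Starts were written 1-based. Of 30802 merged regions, 27929 had a locus in every library, and 11 regions holding a failed estimate were left out. A merged region can join neighbouring genes. log2(FPKM + 1) was fitted in R 4.3.3 by limma 3.58.1, using a mean for each of the 4 groups and a variance trend. Tables were built with Python 3.11.15. The code was tested on simulated data in which 200 of 16811 regions were given an interaction. Of these 200, 0 were called at an interaction of 1 on the log2 scale and 120 (60%) at 2. The data hold more called regions than the simulation, so these shares do not carry over directly. A region that was not called can still differ.

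Named genes were the 4 with the largest interaction in each class among regions with 1 identifier, a highest group mean of at least 10 FPKM and no overlap on the called days, plus 4 regions with no identifier. The members and lists were chosen with earlier results of these data known. The gene family lists were not used, because all symbols in the reference table of 35148 genes equal their locus tags. All p-values measure the spread between these libraries, whatever its source.

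The replicate letters were checked for pairing. On day 7 same-letter control and ethylene-treated libraries deviated from their group means with r = 0.332 (A), 0.031 (B) and 0.118 (C) over regions. For different letters r ran from -0.258 to 0.197. A and C were above 0.1, the threshold set for pairing, and B was below it, so these values do not decide whether letters pair libraries. The A libraries of day 7 are also the single-end ones, so letter and layout cannot be told apart there. The reported fit did not pair the libraries, and fits with the letters as a block are given as alternatives. Alternatives were other pseudocounts (0.1 and 5), filters, scalings, layout, replicate blocks, features, variance models, and each library left out.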

Additional observations from a re-analysis of the deposited data

Results flagged for a closer look

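By the test of the difference itself, limma's interaction term, the ethylene effect differed between day 1 and day 7 for 2390 regions. The regions listed here were chosen by the rule for naming. That rule took only called regions, so it fixed in advance that each of them passed. The very abundant regions described above are not repeated. The interaction of the faded inductions was -6.50 for Mba11_g01060.v1.1, -5.82 for Mba09_g07750.v1.1, -5.48 for Mba05_g08270.v1.1 and -4.72 for Mba11_g18710.v1.1, and -5.71 for the region on chromosome 6 from 6924153 to 6932139. For the lifted repressions it was 6.32 for Mba01_g27630.v1.1, 4.61 for Mba10_g13870.v1.1, 4.53 for Mba05_g06740.v1.1 and 4.40 for Mba09_g11240.v1.1, and 5.11 for the region on chromosome 3 from 1649471 to 1650747.

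Among regions that turned up it was 4.23 for Mba07_g05690.v1.1, 3.48 for Mba01_g14120.v1.1, 3.48 for Mba08_g11240.v1.1 and 3.45 for Mba07_g17940.v1.1, 4.74 for the region on chromosome 3 from 1480928 to 1484109 and 4.51 for the region on chromosome 7 from 9144089 to 9147317. Among those that turned down it was -1.34 for Mba07_g00740.v1.1, -1.33 for Mba08_g33300.v1.1 and -0.99 for Mba01_g05530.v1.1. It was 7.52 for Mba01_g05650.v1.1, 5.40 for Mba04_g17810.v1.1, 4.71 for Mba01_g20070.v1.1 and 4.45 for Mba03_g03340.v1.1, which are grown inductions, and -1.22 for Mba06_g34990.v1.1, -1.19 for Mba11_g06220.v1.1 and -1.01 for Mba05_g26810.v1.1, which are grown repressions.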

How the results depend on the processing

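Under 24 of 28 alternatives the count of interaction calls stayed within 1.5 times 2390. No named region changed sign, and no region called under both fits had the opposite sign in the alternatives that kept the regions. With each library left out in turn the counts ran from 1112 to 2360 for the interaction, 4853 to 7262 for ethylene on day 1, 1343 to 2483 on day 7, 111 to 190 for control fruit between the days, 2055 to 4551 for ethylene-treated fruit, 446 to 939 for faded inductions, 537 to 1241 for lifted repressions, 24 to 39 turned up, 1 to 16 turned down, 81 to 137 grown inductions, 6 to 26 grown repressions and 5 to 33 called on neither day. Fits on other features test fewer of them: among 2095 identical loci 652 were called by the interaction, 1173 on day 1, 507 on day 7, 99 in control and 940 in ethylene-treated fruit between the days, with 282 faded inductions, 304 lifted repressions, 8 turned up, 4 turned down, 43 grown inductions, 2 grown repressions and 9 on neither day. Among 356 annotated identifiers these were 112, 188, 56, 26 and 160, with 46, 52, 4, 0, 7, 0 and 3 in the classes in the same order. A mean FPKM of at least 5 left 20 turned up and 78 grown inductions. Median-of-ratios scaling gave 42 on neither day, the highest locus of a region 48 and quantile normalization 38 grown repressions. Layout as a term gave 2862 regions called by the interaction, with 38 turned down, 46 grown repressions and 41 on neither day. Paired-end libraries alone gave 74 regions in control fruit between the days, 13 turned down and 34 grown repressions. With a pseudocount of 5 the called regions were 1109 above and 1115 below 0. The cause was not tested. With replicate letters as a replicate block the interaction called 2135 regions, 133 changed in control fruit, and with source numbers as a block 2458 and 116. The block by letters ended the calls of Mba06_g34990.v1.1 (limma adjusted p = 0.0631) and Mba05_g26810.v1.1 (0.0613), and the replicate block changed no other call of a named region. In the deviations from group means, control day 7 B correlated more with ethylene day 7 C (0.101) than with B, and control day 7 C more with ethylene day 7 B (0.197) than with C, so the letters did not match best for every library.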
